A study of Mus musculus with 18 samples.

Results

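Transit amplifying progenitors (TAPs) are the rapidly dividing cells that arise from activated neural stem cells in the subventricular zone (SVZ), the neurogenic layer beside the lateral ventricles, and that give rise to migrating neuroblasts. They leave the stem cell state as Notch signalling, which holds stem cells undivided and undifferentiated through Hes1 and Hes5, gives way to proneural transcription factors. The 9 genes described here, *Gsx2*, *Neurog2*, *Insm1*, *Hes6*, *Mycn*, *Btg2*, *Gadd45g*, *Mfng* and *Rnd3*, act at this step as lineage factors, as regulators of division, as a modifier of Notch signals or on the cell's shape and movement. Every probe annotated with the symbol of 1 of these genes and no other was taken, which gave 14 of the 45281 probes of the array. Each probe was read in the dissected SVZ of 9 Tam-Idh1-KI mice and 9 control mice, on 1 array per mouse.

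Tam-Idh1-KI mice carried a tamoxifen-inducible *Nes-Cre*ER(T2) transgene and 1 *Idh1* fl(R132H) allele, so that mutant Idh1 was switched on in *nestin*-expressing cells. Controls were wild-type for *Idh1*, with or without the *Nes-Cre* transgene. All mice were of the c57bl6 strain, received tamoxifen at 50 mg/kg daily for 5 days from 5–6 weeks of age, and were 5–9 months old at sampling (median 5 months for Tam-Idh1-KI and 6 months for controls). The conditional allele is leaky, the SVZ piece holds every cell type of the dissected tissue, not only recombined cells, and with RNA from whole tissue a change in the number of cells of a type cannot be told apart from a change in RNA per cell.

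Arrays were hybridised on 2 days, with 6 mice of each group in the first run and 3 of each in the second. Both groups of the first run had 2 females and 4 males. In the second run the knockin mice were 3 females, whereas the controls were 1 female and 2 males. Mice of the second day were also older (7–9 months against 5–6 months), so that day and age cannot be told apart. Mean bead signal ranged from 460.2 to 905 over the Tam-Idh1-KI arrays and from 454 to 679 over the control arrays, and 44.6% to 50.9% of probes were detected. The correlation between any 2 arrays lay between 0.916 and 0.989. The *Idh1* probe lay under the same-day control mean in each of the 9 Tam-Idh1-KI mice (log2 fold change −0.37, SE 0.11, adjusted p = 0.272 in limma); its position relative to the mutation was not examined here.

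Of the 9 genes, 5 gave a signal that could be compared. A probe was called detected on an array where its detection p, the share of negative control beads at least as bright, was under 0.05, and it was kept for testing where this held on at least 9 of the 18 arrays. The 8 kept probes belonged to *Insm1* (1 probe), *Hes6* (3 probes), *Mfng* (1 of 2 probes), *Gadd45g* (2 probes) and *Rnd3* (1 probe), and each of them was detected on all 18 arrays. The other 6 probes were not kept, and 5 of these, covering *Gsx2*, *Neurog2*, *Mycn* and *Btg2*, were detected on 0 arrays.

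**Figure D1:**
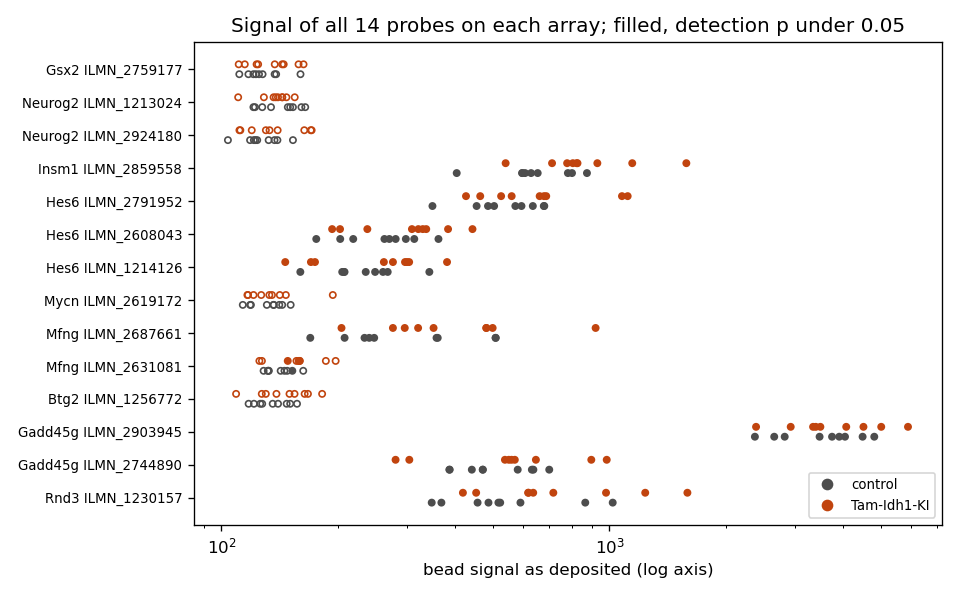
Bead signal of the 14 probes on each of the 18 arrays as deposited, on a log axis, with 1 row per probe, Tam-Idh1-KI in orange and controls in grey. Filled circles mark arrays with a detection p under 0.05. The probes of *Gsx2*, *Neurog2*, *Mycn* and *Btg2* lie between 104 and 194 and are open throughout, while the brighter *Gadd45g* probe lies between 2370 and 5878.

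Proneural factors read E boxes in the DNA of their targets, so the 250 bases before a RefSeq transcript start of the members were searched on both strands for CAGCTG and for CAGATG, which reads CATCTG on the opposite strand. They do not overlap in the windows shown. The 8 RefSeq windows (GRCm38.p6) of 7 of the 9 genes were used, and *Insm1* and *Mfng* were not searched. The *Neurog2* window (chromosome 3, 127632886–127633135) and a second *Hes6* window (chromosome 1, 91413223–91413472) lie inside the gene. *Hes6*, *Gadd45g* and *Rnd3*, the 3 detected members with a window, each held 1 of the 2 motifs before the gene start, the second *Hes6* window held a further CAGCTG, and the windows of *Gsx2*, *Neurog2*, *Mycn* and *Btg2* held neither. Of all 32851 windows, 13% held CAGCTG, 14.4% held CAGATG and 25.5% held either. The 3 upstream sequences are shown because they belong to the members with a measurable level. They read 5′ to 3′ on the strand of the gene. Capitals mark the motif found, CAGCTG or CATCTG, and other forms of the E box were left in lower case.
*Hes6*, chr1:91414039-91414288, minus strand: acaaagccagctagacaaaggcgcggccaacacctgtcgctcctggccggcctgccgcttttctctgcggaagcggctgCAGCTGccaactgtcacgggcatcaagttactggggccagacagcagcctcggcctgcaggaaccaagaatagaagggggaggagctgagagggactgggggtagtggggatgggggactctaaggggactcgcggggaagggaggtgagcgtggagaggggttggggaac
*Gadd45g*, chr13:51846425-51846674, plus strand: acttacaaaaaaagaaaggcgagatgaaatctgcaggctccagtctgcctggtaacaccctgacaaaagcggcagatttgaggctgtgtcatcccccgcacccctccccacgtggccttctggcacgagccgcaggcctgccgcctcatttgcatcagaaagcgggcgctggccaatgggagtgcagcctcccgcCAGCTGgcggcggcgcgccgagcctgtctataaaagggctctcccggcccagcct
*Rnd3*, chr2:51149112-51149361, minus strand: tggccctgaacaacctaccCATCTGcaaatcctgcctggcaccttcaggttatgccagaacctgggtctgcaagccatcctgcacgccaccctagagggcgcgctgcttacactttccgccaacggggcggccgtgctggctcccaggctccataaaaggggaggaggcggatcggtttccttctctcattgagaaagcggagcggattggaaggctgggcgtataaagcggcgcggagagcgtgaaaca

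Counted from the gene start, the motif in capitals begins at position −171 for *Hes6*, −55 for *Gadd45g* and −231 for *Rnd3*. The sequence CACGTG, which Myc and Hes-related factors can read, was found in the windows of *Gadd45g* and *Gsx2* (6.02% of all windows), and CACGCG, searched on both strands, in 0 of the member windows (7.62% of all). A match of 6 letters is a description of the sequence only.

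*Gsx2* and *Neurog2* encode transcription factors that direct the kind of neuron a progenitor makes. *Gsx2*, a homeobox gene of the ventral forebrain (GRCm38.p6 chromosome 5, 75075601–75077893), had a signal of 111 to 163 with a detection p between 0.0769 and 0.918. *Neurog2*, the proneural gene of excitatory cortical lineages (chromosome 3, 127632733–127635636), was not well above background on any array with either probe, and its lowest detection p was 0.0652. Its probe ILMN_1213024 had a mean log2 level of 4.72 in Tam-Idh1-KI and 4.95 in controls, and its probe ILMN_2924180 had means of 4.68 and 4.59. The probes of this gene thus stood in opposite order, both at background.

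*Mycn*, a Myc family transcription factor that drives growth and division of neural progenitors (chromosome 12, 12936093–12941836), had a signal of 113.6 to 194 and a lowest detection p of 0.103. *Btg2*, an anti-proliferative gene that in the embryonic mouse brain marks progenitors about to make neurons (chromosome 1, 134074865–134079155), had a signal of 109 to 182 and a lowest detection p of 0.0812. On the first day 6 of 6 Tam-Idh1-KI values lay above the control mean, and on the second day 0 of 3 did. For these 4 genes no fold change is given, since both groups were at background, and the arrays did not show whether they differed.

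*Insm1*, a zinc finger repressor that in the embryonic mouse cortex promotes the formation of intermediate progenitors (chromosome 2, 146221997–146225020), was the member with the smallest p. Its log2 level, which is background corrected and quantile normalized, had a lowest value of 9.21, a median of 9.40 and a highest value of 9.98 over the 9 Tam-Idh1-KI mice. The 9 controls had a lowest value of 8.81, a median of 9.32 and a highest value of 9.54. Of the Tam-Idh1-KI mice 4 lay above every control, and the groups overlapped between 9.21 and 9.54. The means were 9.48 ± 0.21 and 9.19 ± 0.20 (SD within day, n = 9 each), and the fitted log2 fold change, with day and sex in the model, was 0.33 (SE 0.093, 95% interval 0.14 to 0.53), a 1.26-fold higher level. Its adjusted p was 0.252 (limma, Benjamini-Hochberg over 21644 probes), so that the difference did not pass the threshold of 0.05.

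The *Insm1* difference had the same sign on both days. On the first day the mean was 9.39 in Tam-Idh1-KI and 9.07 in controls, and 6 of 6 Tam-Idh1-KI mice were above the control mean. In the second run Tam-Idh1-KI values were 9.63, 9.40 and 9.98 and control values 9.36, 9.38 and 9.54, so that 2 of 3 were above the control mean. The lowest controls, mice 1 and 2 at 8.81 each, were both females of the first day.

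*Hes6* encodes a basic helix-loop-helix protein that counters Hes1 and promotes neuronal differentiation (chromosome 1, 91411483–91414038). Its brightest probe, ILMN_2791952, had a lowest log2 level of 8.61, a median of 8.98 and a highest level of 9.23 in Tam-Idh1-KI, and a lowest of 8.50, a median of 8.87 and a highest of 9.26 in controls. The groups overlapped over nearly their whole range. The log2 fold change was 0.14 (SE 0.11, 95% interval −0.089 to 0.36, adjusted p = 0.796), and 8 of 9 Tam-Idh1-KI mice were above the same-day control mean. The dimmer probes ILMN_2608043 and ILMN_1214126 gave log2 fold changes of 0.11 (SE 0.10, adjusted p = 0.849) and −0.10 (SE 0.13, adjusted p = 0.895), respectively. No probe of *Hes6* passed the test and their signs differed, while every interval spanned 0.

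*Gadd45g*, a small stress-inducible protein that slows the cell cycle and is switched on as progenitors begin to differentiate (chromosome 13, 51846675–51848475), had the brightest probe among the 14. The log2 level of probe ILMN_2903945 had a lowest value of 11.36, a median of 11.78 and a highest of 12.12 in Tam-Idh1-KI, against 11.37, 11.92 and 12.28 in controls. The log2 fold change was −0.065 (SE 0.12, 95% interval −0.31 to 0.18, adjusted p = 0.936), and 4 of 9 Tam-Idh1-KI mice were above the same-day control mean. The second probe, ILMN_2744890, gave −0.029 (SE 0.12, adjusted p = 0.978). Neither probe passed the test, and both changed sign under median scaling (0.053 and 0.088), under which the median log2 fold change of all kept probes moved from 0.0047 to 0.10. Between the days the sign also differed, with differences of means of 0.031 and 0.063 on the first day and −0.33 and −0.41 on the second. With sex in the model, which is uneven on the second day, the second-day values were −0.12 (SE 0.30) and −0.0096 (SE 0.21).

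*Mfng*, one of the fringe glycosyltransferases that add sugars to Notch receptors and so alter which ligands they answer to (chromosome 15, 78755882–78773516), showed the widest spread of the members. The log2 level of probe ILMN_2687661 ran from 7.08 over a median of 7.59 to 9.14 in Tam-Idh1-KI, and from 6.00 over a median of 7.18 to 8.59 in controls. Each of the 9 Tam-Idh1-KI mice lay above the control mean of its day, although the groups overlapped. On the second day, where the values were close together, mutants stood at 8.75, 8.74 and 9.14 and the controls at 8.59, 8.47 and 8.53, so that the groups did not overlap within that day. On that day 7.13% of all genes did not overlap with the higher values in Tam-Idh1-KI, and the mutants were all female whereas 2 of the 3 controls were male. With sex in the model the second-day difference was 0.41 (SE 0.24). On the first day they overlapped, with Tam-Idh1-KI mice between 7.08 and 7.71 and controls between 6.00 and 7.78. The fitted log2 fold change was 0.42 (SE 0.17, 95% interval 0.057 to 0.78), a 1.33-fold higher level, with an adjusted p of 0.484.

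Control mouse 6 had the lowest *Mfng* level, at 6.00, and lowered the first-day control mean, which was 6.97. The other controls of that day lay between 6.81 and 7.78, and Tam-Idh1-KI mouse 1 stood at 7.08. The count of 9 of 9 thus leans on control mouse 6. The share of all genes with such a count was not computed, here or for the other genes described. The second *Mfng* probe, ILMN_2631081, was detected on 2 Tam-Idh1-KI arrays and 1 control array, at a signal of 125 to 197, and was not tested.

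*Rnd3* encodes an atypical small GTPase that acts on the actin cytoskeleton and is needed for newborn neurons to move in the embryonic mouse cortex (chromosome 2, 51130439–51149111). Its log2 level ran from 8.53 over a median of 9.06 to 9.89 in Tam-Idh1-KI and from 8.04 over a median of 8.66 to 9.62 in controls. As for *Mfng*, 9 of 9 Tam-Idh1-KI mice were above the control mean of their day. In the second run Tam-Idh1-KI mice stood at 9.65, 9.89 and 9.75 and the controls at 9.49, 9.62 and 9.43, without overlap (7.13% of all genes, as above), whereas first-day values overlapped. The second-day difference of means was 0.25, and 0.14 (SE 0.20) with sex in the model. The fitted log2 fold change was 0.30 (SE 0.13, 95% interval 0.032 to 0.58), a 1.23-fold higher level, and the adjusted p was 0.506.

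**Figure D2:**
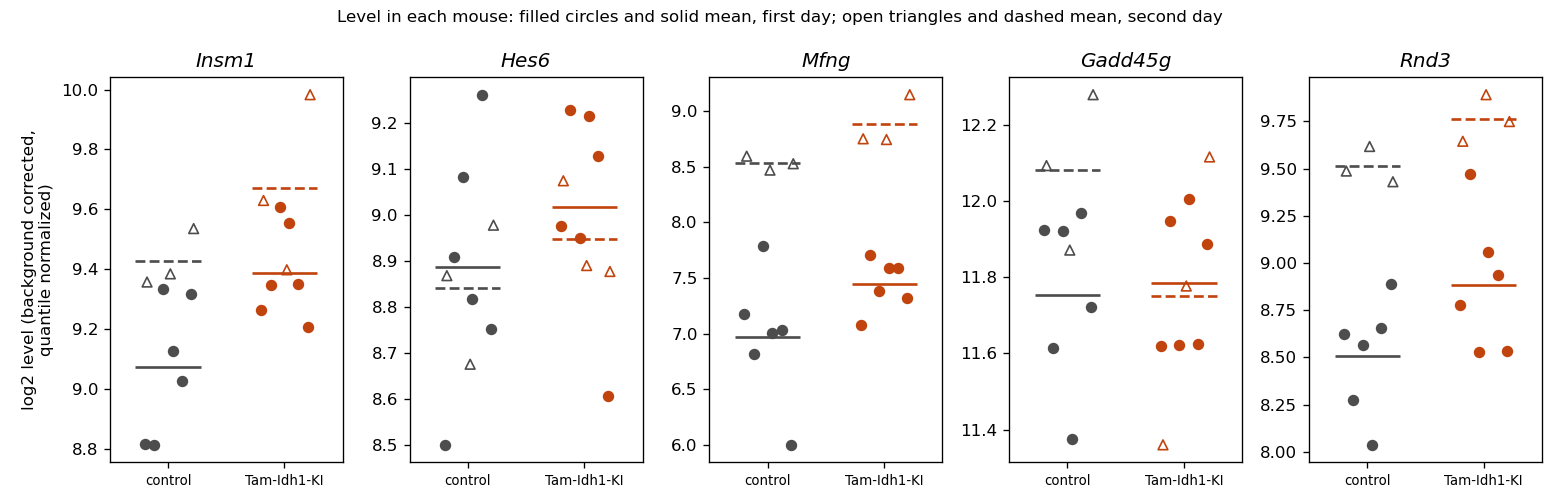
Log2 level of the brightest kept probe of each of the 5 detected genes in each mouse, with controls on the left and Tam-Idh1-KI on the right of every panel. Filled circles and solid lines give the mice and mean of the first day and open triangles and dashed lines those of the second day (n = 6 and n = 3 per group). The group means of *Insm1*, *Mfng* and *Rnd3* are higher in Tam-Idh1-KI on both days, and those of *Gadd45g* differ in sign between days.

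Over the 8 kept probes, 0 passed an adjusted p of 0.05, where 0.097% of all kept probes did (21 of 21644, of which 9 were higher and 12 lower in Tam-Idh1-KI, and 11 with the replicate number as a block). By the brightest probe of each gene, 3 of the 5 genes (*Insm1*, *Mfng* and *Rnd3*) had an unadjusted p under 0.05, each with a higher level in Tam-Idh1-KI. Among all 11465 genes the share with an unadjusted p under 0.05 and a higher level was 6.19%, and 3% had a lower level. The median log2 fold change of the 5 genes was 0.30, beside 0.013 over all genes, and 4 of 5 were positive beside 54.5% of all genes. In 0 of the 8 probes did the groups not overlap, beside 0.0349% of all genes. The 9 genes were put together with earlier results of these data known, so these counts describe them and carry no separate evidence.

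**Figure D3:**
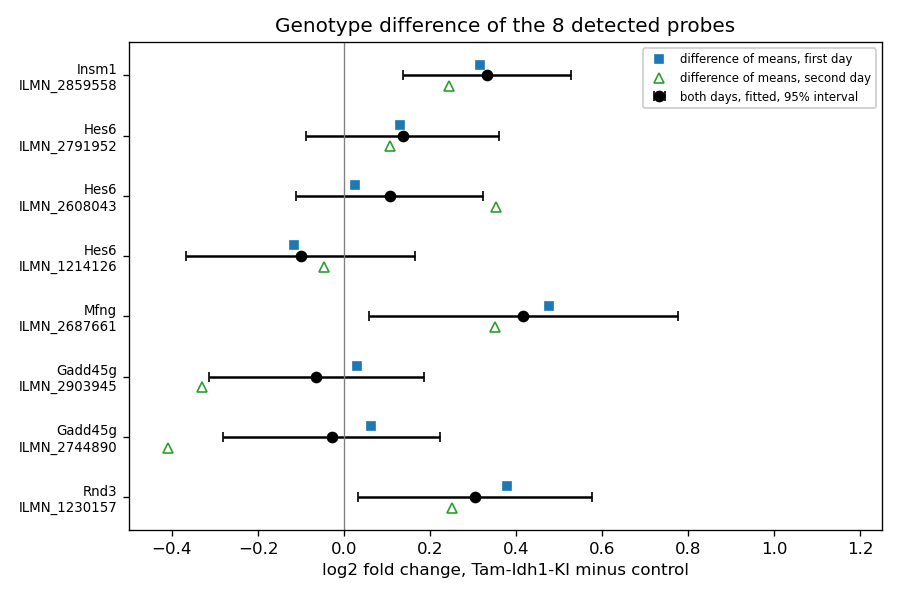
Log2 fold change (Tam-Idh1-KI minus control) of the 8 kept probes, with the 95% interval of the fit over both days as black circles and bars, and the plain differences of means on the first day (squares) and on the second (triangles). The intervals of *Insm1*, *Mfng* and *Rnd3* lie above 0 before adjustment, and those of the *Hes6* and *Gadd45g* probes span 0.

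The genotype difference was not shown to depend on day or sex. The genotype by day interaction passed an adjusted p of 0.05 in 0 of the 8 probes and in 0% of all kept probes, and none of the 8 had an unadjusted interaction p under 0.05. The genotype by sex interaction gave the same counts. With age in months added to the model, the log2 fold changes were 0.31 for *Insm1*, 0.38 for *Mfng* and 0.27 for *Rnd3*. The age term passed the threshold for 0 of the 8 probes, with a smallest adjusted p of 0.796 (limma). The sex term also passed for 0 of the 8, beside 0.0185% of all kept probes. Controls of the first run tended to be older than their knockin counterparts. With age added, the SE of the genotype value moved little, from 0.093 to 0.099 for *Insm1*. It moved from 0.17 to 0.18 for *Mfng* and from 0.13 to 0.14 for *Rnd3*. Age was fitted as a straight line in months, so this fit cannot show that age has no part in the genotype values.

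Hybridisation day was the larger term for most of these probes. It passed the threshold for 6 of the 8 probes, of which 3 were higher and 3 lower on the second day, beside 61.4% of all kept probes. The log2 level of *Mfng* was 1.47 higher on the second day (SE 0.19, adjusted p = 3e-06), and its first-day values, 6.00 to 7.78, did not meet its second-day values, 8.47 to 9.14. *Rnd3* was higher by 0.89 (SE 0.14, adjusted p = 3.1e-05) and *Insm1* by 0.38 (SE 0.10, adjusted p = 0.00358). Thus for *Mfng* and *Rnd3* the shift between days was larger than the difference between genotypes, and each genotype value rests on comparing mice within a day. Day goes with the age of the mice here, as noted, and the part of either in these shifts cannot be told apart.

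**Figure D4:**
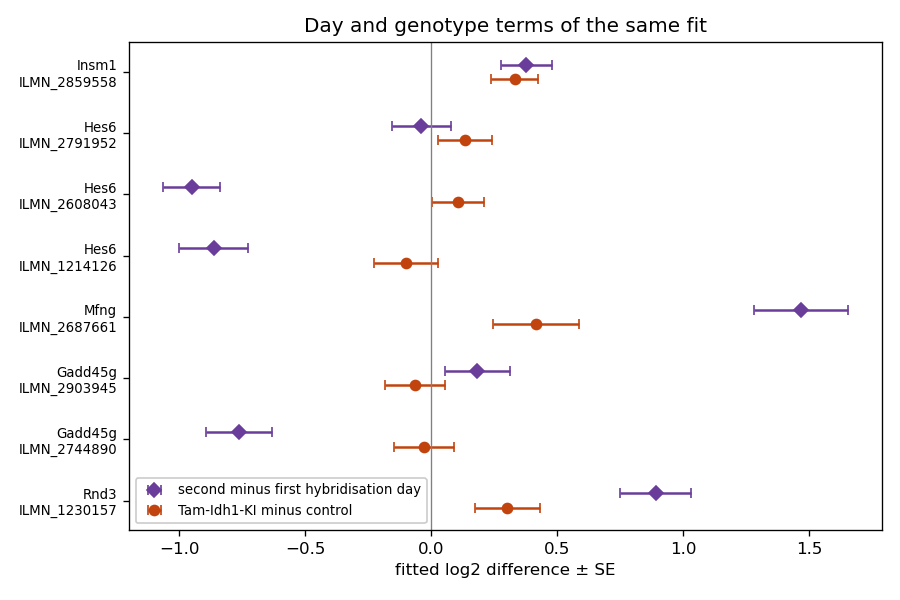
Fitted log2 differences ± SE from 1 model over 18 arrays, with the second minus the first hybridisation day as purple diamonds and Tam-Idh1-KI minus control as orange circles. The day term is 1.47 for *Mfng* and 0.89 for *Rnd3*, below 0 for the dimmer probes of *Hes6* and *Gadd45g*, and near 0 for the brightest *Hes6* probe.

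The detected members varied together to different degrees from mouse to mouse. After genotype, day and sex were removed, the Pearson correlation over 18 arrays, which share their normalization, was 0.55 for *Gadd45g* with *Rnd3* and 0.43 for *Mfng* with *Gadd45g*. It was 0.37 for *Hes6* with *Rnd3*, 0.22 for *Insm1* with *Mfng* and −0.014 for *Mfng* with *Rnd3*. The Spearman correlations of the 10 pairs were all positive, from 0.17 for *Insm1* with *Hes6* to 0.72 for *Mfng* with *Gadd45g*, with 0.34 for *Mfng* with *Rnd3*. By the same measure the genes most like *Insm1* were *H2ac13* (0.84), *Gmfg* (0.84) and *Fcgr4* (0.82), and those most like *Hes6* were *Fam78b* (0.89), *Necap2* (0.88) and *Proser1* (0.87). *Mfng* was most like *Ccdc88a* (0.88), *Nrm* (0.88) and *Trp53inp1* (0.87), *Gadd45g* most like *Kank2* (0.86), *Hopx* (0.83) and *Fbrs* (0.82), and *Rnd3* most like *Mab21l2* (0.87), *Thrsp* (0.81) and *Heatr5a* (0.80). None of these genes is a member, and each was picked as the highest over 11465 genes, so the correlations are high by choice.

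Other regulators of the TAP and neuroblast lineage, transcription factors and the receptor *Egfr*, were described from a list of 27 genes, of which 19 had a kept probe. None passed the adjusted threshold, which 0.122% of all genes did by their brightest probe, and 5 had an unadjusted p under 0.05 with a higher level in Tam-Idh1-KI, against 0 with a lower one. Their median log2 fold change was 0.050, and without *Egfr* 4 of 18 had such a p. The median over all genes was 0.013, and 6.19% of all genes had such a p with a higher level. *Id1*, an inhibitor of proneural factors, had a log2 fold change of 0.32 (SE 0.11, adjusted p = 0.394), *Sox11*, a factor of early neurons, 0.26 (SE 0.10, adjusted p = 0.478), and *Egfr*, the growth factor receptor that marks activated stem cells and TAPs, 0.24 (SE 0.10, adjusted p = 0.488). *Dlx1* and *Dlx2*, which mark TAPs and neuroblasts, were detected on all 18 arrays with log2 fold changes of 0.25 (SE 0.11, adjusted p = 0.543) and 0.20 (SE 0.13, adjusted p = 0.723). *Dlx6*, of the same family and also detected on all 18 arrays, had −0.28 (SE 0.14, adjusted p = 0.621).

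In the Notch pathway 18 of 24 listed genes had a kept probe, and 6 of the 18 had a positive value, with a median log2 fold change of −0.041. None had an unadjusted p under 0.05, where 6.19% of all genes were higher and 3% lower at that limit. Of all genes 54.5% were positive, with a median of 0.013. *Numbl*, a Notch inhibitor, had −0.43 (SE 0.21, adjusted p = 0.576), and *Maml1*, a Notch co-activator, 0.30 (SE 0.16, adjusted p = 0.622). *Lfng*, a fringe gene like *Mfng*, had −0.36 (SE 0.21, adjusted p = 0.669). It lay near background and was detected on only 4 Tam-Idh1-KI and 6 control arrays. The third fringe gene, *Rfng*, had −0.28 (SE 0.23, adjusted p = 0.810). The values of *Lfng* and *Rfng* thus had the opposite sign to that of *Mfng*, with none of the 3 past the threshold and the differences between them not tested.

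Of the 23 paralogs of the members, 13 had a kept probe. Their median log2 fold change was 0.060, with 1 gene higher and 1 lower at an unadjusted p under 0.05, beside 6.19% and 3% of all genes. The lower one, *Tob1*, an anti-proliferative relative of *Btg2*, had −0.23 (SE 0.092, adjusted p = 0.481) and lay below the control mean of its day in each of the 9 mutants. The higher one, *Btg1*, had 0.15 (SE 0.066, adjusted p = 0.523) and was above it in 9 of 9. *Btg4*, near background and detected on 6 Tam-Idh1-KI and 3 control arrays, had 0.20 (SE 0.12, adjusted p = 0.662). Neither *Btg1* nor *Tob1* passed the adjusted threshold.

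Over all genes the median log2 fold change was 0.013, and 6.19% were higher and 3% lower at an unadjusted p under 0.05. Among 13 kept genes of the Myc network and its targets the median log2 fold change was 0.024, with 1 gene at an unadjusted p under 0.05. That gene, *Mga*, a partner of Max, had −0.46 (SE 0.21, adjusted p = 0.538), while *Mxd1*, which opposes Myc, had 0.17 (SE 0.086, adjusted p = 0.587) and *Npm1*, a nucleolar protein, 0.047 (SE 0.060, adjusted p = 0.895). Among 21 kept immediate early genes, which record recent stimulation, the median was 0.0073 and 0 had an unadjusted p under 0.05, with *Jun* at −0.25 (SE 0.15), *Dusp1* at 0.21 (SE 0.14) and *Egr3* at −0.11 (SE 0.078). Among 15 kept p53 targets, a family to which *Btg2* belongs, the median was 0.046, with 2 genes higher and 1 lower at an unadjusted p under 0.05. These were *Fas* (0.44, SE 0.11, adjusted p = 0.173), *Trp53inp1* (0.20, SE 0.094, adjusted p = 0.541) and *Eda2r* (−0.37, SE 0.14, adjusted p = 0.425). *Eda2r* was detected on 3 Tam-Idh1-KI and 7 control arrays, so that its fold change rests on values near background.

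Genes of the cell cycle, which TAPs use as they divide, had mostly positive values, although none of them passed the adjusted threshold. The list held genes of S, G2 and M phase, the G1 cyclins *Ccnd1* and *Ccnd2*, and *Ccne1*, a cyclin of the step from G1 to S. Of its 25 kept genes 22 had a positive value, with a median log2 fold change of 0.26. An unadjusted p under 0.05 was found for 10, all with a higher level in Tam-Idh1-KI. Without *Ccnd1* and *Ccnd2* 21 of 23 were positive and 9 had such a p, with the same median. *Kif11*, a spindle motor, had 0.45 (SE 0.13, adjusted p = 0.275), *Mcm7* 0.43 (SE 0.13, adjusted p = 0.293) and *Mcm6* 0.44 (SE 0.14, adjusted p = 0.323), the last 2 being subunits of the replicative helicase. The mean log2 level of the list ranged from 7.42 to 8.43 over the Tam-Idh1-KI mice and from 7.38 to 7.99 over the controls. Among all genes 54.5% had a positive value and 6.19% a higher level at an unadjusted p under 0.05, with a median of 0.013.

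Markers of other cell types of the SVZ also had mostly positive values. Over all genes 54.5% had a positive value and 6.19% a higher level at an unadjusted p under 0.05, with a median log2 fold change of 0.013. Genes of ependymal cells, which line the ventricle wall, were positive in 15 of 15 kept genes, with a median log2 fold change of 0.36, 10 at an unadjusted p under 0.05, and a mean level of 8.72 to 9.74 in Tam-Idh1-KI against 8.76 to 9.31 in controls. Neuroblast genes were positive in 13 of 18, with a median of 0.20, 9 at an unadjusted p under 0.05, and a mean level of 10.17 to 10.67 against 10.04 to 10.33. Some of them, among these *Sox11* and *Dlx6*, also belong to the list of TAP and neuroblast regulators above. *Sox11* is counted at this limit in both. *Dcx*, a microtubule protein of migrating neuroblasts, had 0.63 (SE 0.17, adjusted p = 0.221), *Cd24a*, carried by neuroblasts and ependymal cells and counted in both lists, 0.53 (SE 0.13, adjusted p = 0.152, detected on 8 Tam-Idh1-KI and 3 control arrays), and *Dpysl3*, of growing neurites, 0.38 (SE 0.11, adjusted p = 0.291). *Fam183b* and *Dnali1*, both of motile cilia, had 0.42 each (SE 0.11 and 0.12). The part of such cells in the values of *Insm1*, *Mfng* and *Rnd3* was not tested.

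Stem cell and astrocyte genes were positive in 13 of 18, with a median of 0.11 and a mean level of 9.61 to 10.14 in Tam-Idh1-KI against 9.62 to 9.96 in controls, and 4 were higher and 1 lower at an unadjusted p under 0.05. *Tnc*, an extracellular matrix protein of the niche, had 0.64 (SE 0.16, adjusted p = 0.185), *Prom1* 0.47 (SE 0.14, adjusted p = 0.293) and *Vim* 0.45 (SE 0.16, adjusted p = 0.390). *Tnc* and *Prom1* were dim, detected on 9 and 7 Tam-Idh1-KI arrays and on 6 and 2 control arrays, so that their fold changes rest on values near background. The lower gene was *Slc1a2*, with −0.22 (SE 0.087, adjusted p = 0.465), above the same-day control mean in 1 of 9 mutants. *Slc1a3*, like *Slc1a2* detected on all 18 arrays, had 0.032 (SE 0.067). Oligodendrocyte lineage genes were positive in 12 of 14 (median 0.14, with *Enpp6* at 0.62, *Mbp* at 0.27 and *Sox10* at 0.25), microglial genes in 10 of 11 (median 0.11, with *Tyrobp* at 0.23, *Trem2* at 0.21 and *Csf1r* at 0.20) and endothelial and mural genes in 11 of 15 (median 0.069, with *Cdh5* at 0.26, *Vtn* at 0.26 and *Rgs5* at 0.26). Striatal neuron genes were positive in 4 of 13 (median −0.042, with *Gpr6* at −0.25, *Tac1* at −0.12 and *Foxp1* at −0.16) and choroid plexus genes in 2 of 8 (median −0.12, with *Folr1* at 0.51, *Sostdc1* at 0.28 and *Calml4* at −0.24). At an unadjusted p under 0.05, 2 oligodendrocyte, 3 endothelial and mural and 2 choroid plexus genes were higher. The 2 of the choroid plexus were *Folr1* and *Sostdc1*. In these 3 lists 0 genes were lower at that limit, and 0 microglial or striatal genes passed it. The striatal list reached a mean level of 11.65 to 12.24 in Tam-Idh1-KI and of 11.69 to 12.20 in controls, with a bright signal in every mouse, and 0 genes of any of these lists passed the adjusted threshold.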

How the data were processed

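RNA from the SVZ of 18 mice, 9 per group, was read on Illumina WG6-v2 mouse arrays. The authors deposited 1 linear intensity per probe and array, the bead signal, neither background corrected nor normalized, together with a detection p-value. They also deposited log2 values, whose ranks within each array equal those of the signal and whose normalization the sources used here do not state. GenomeStudio is named without a version in the submitters' processing notes.

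Signals were background corrected with the detection p-values, quantile normalized and put on the log2 scale (neqc, offset 16; limma 3.58.1, R 4.3.3). Of 45281 probes, the 21644 detected (p under 0.05) on 9 or more of the 18 arrays were kept. Each was fitted with genotype, hybridisation day and sex (lmFit, eBayes), with Benjamini-Hochberg adjustment over all kept probes and a threshold of 0.05. A gene was represented by its brightest kept probe. Means ± SD use deviations within a hybridisation day. Group, day, sex and age came from the labels, and 0 sample columns were left out. The script was tested on simulated data. The number of arrays limits the precision (median SE 0.12).

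Of the probes, 34885 had 1 symbol, 18 several and 10378 none, and 34807 were found by Entrez ID in the RefSeq table.

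Named were all members with every single-symbol probe, up to 3 genes of each list with the smallest p, and the 3 genes most correlated with each detected member after genotype, day and sex were removed. *Dlx1*, *Dlx2*, *Dlx6*, *Rfng*, *Slc1a2*, *Slc1a3*, *Ccnd1*, *Ccnd2* and *Ccne1* were named after their values were seen. Members and lists were chosen with earlier results of these data known. Between-probe differences were compared by exact permutation.

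The paper describes its controls as paired littermates, but nothing in the labels ties replicate numbers to litters. The main fit therefore used no litter pairs. Its p-values measure the spread between these mice, taken as independent. Same-numbered mice deviated together in 9 of 9 pairs (mean correlation 0.49, each over 0.1), and in 4 of 9 within hybridisation day (mean 0.062), since same-numbered mice share a day. Fitted values come from the model without a block unless the block is named, and a fit with the replicate number as a block was run as an alternative.

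Alternatives changed the background correction, offset, normalization, filter, covariates, probe choice, threshold, weights and samples, or used the methods' t-test.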

Additional observations from a re-analysis of the deposited data

How the results depend on the processing

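No member passed the threshold of 0.05 under any alternative with Benjamini-Hochberg adjustment. Under the methods' t-test at its nominal threshold, which is not adjusted, *Insm1* passed and no other kept member probe did. Over 38 alternatives the log2 fold change of *Insm1* ran from 0.28 to 0.45 (lowest adjusted p 0.0785, with array weights), that of *Mfng* from 0.24 to 0.52, that of *Rnd3* from 0.14 to 0.42 and that of the brightest *Hes6* probe from 0.058 to 0.27 (0.047 for the mean of the 3 *Hes6* probes), all of 1 sign. Median scaling turned *Hes6* probe ILMN_1214126 to 0.0011 and the *Gadd45g* probes ILMN_2903945 to 0.053 and ILMN_2744890 to 0.088. The first day alone turned the latter 2 to 0.031 and 0.063, and the replicate block turned ILMN_2744890 to 0.00028. Leaving out 1 mouse moved ILMN_2744890 between −0.097 and 0.033, above 0 without Tam-Idh1-KI mouse 3 or control mouse 1, 6 or 9. The cause of these turns was not tested.

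The 21 probes called over the whole array became 13 without a detection filter, where 45281 probes were tested, 13 with neither day nor sex in the model, 62 with array weights and 35 at a threshold of 0.1. With fewer samples, they became 1 in the first run alone and 0 in the second run alone. With the replicate block they became 11, of which 9 were among the 21. The methods' t-test gave 1012 at its nominal threshold (581 higher, 431 lower) and 5 after Benjamini-Hochberg. Leaving out 1 mouse gave 6 (without control mouse 8) to 32 (without control mouse 3), with 13, 7 and 9 without Tam-Idh1-KI mice 2, 3 and 4, and 7 and 8 without control mice 1 and 2. Median scaling gave 22 calls, split into 13 higher and 9 lower against 9 and 12. The slide as a block could not be run, since the columns do not name it. The counts of interactions stayed at 0 in each alternative tried. Probes near background limit what can be read of *Gsx2*, *Neurog2*, *Mycn*, *Btg2* and the dimmer *Mfng* probe.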

Other observations

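Probes of *Hes6* and of *Gadd45g* moved apart between hybridisation days, while no difference between them passed a test between genotypes. The day term passed the threshold for 61.4% of all kept probes. How often probes of other genes moved apart in this way was not counted, so the shift is not shown to be particular to these genes. For *Hes6*, a neurogenic factor, the day term was −0.039 for probe ILMN_2791952 (SE 0.12, adjusted p = 0.790 in limma), −0.95 for ILMN_2608043 (SE 0.11, adjusted p = 1.4e-06) and −0.86 for ILMN_1214126 (SE 0.14, adjusted p = 3.5e-05). For *Gadd45g*, a brake on the cell cycle, it was 0.18 for ILMN_2903945 (SE 0.13, adjusted p = 0.230) and −0.76 for ILMN_2744890 (SE 0.13, adjusted p = 7.1e-05). The log2 level of the first *Gadd45g* probe minus that of the second lay between 2.28 and 2.96 on the 12 arrays of the first day and between 3.47 and 4.02 on the 6 arrays of the second, without overlap.

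The difference between probes was itself tested in 8 two-sided exact permutation tests, adjusted over the 8. It shifted between days by 1.01 for *Gadd45g* and, for the brightest *Hes6* probe minus each of the dimmer ones, by 0.85 and 0.79 (exact permutation p = 0.000142 each, the smallest the relabellings can give, adjusted p = 0.000378). Between the 2 dimmer *Hes6* probes the shift was −0.056 (exact permutation p = 0.717). Between genotypes the shifts ran from −0.012 to 0.23, with exact permutation p from 0.116 to 0.975. Over the 18 arrays the brightest *Hes6* probe correlated with the others at 0.027 and 0.25, while the 2 dimmer ones correlated with each other at 0.80, and the *Gadd45g* probes correlated at 0.11. In the deposited log2 values the day terms were −0.056, −0.79 and −0.68 for *Hes6* and 0.24 and −0.72 for *Gadd45g*. The positions of these probes in their transcripts were not analysed here, and the age of the mice differed between days.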
